A study of Homo sapiens with 8 samples.

Results

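Transcripts of the matrix metalloproteinases MMP1, MMP2, MMP3, MMP9, MMP10, MMP14 and MMP15 and of the tissue inhibitors TIMP1, TIMP2 and TIMP3 were followed in RNA-seq counts of A549 cells, an established human lung adenocarcinoma line. The 10 genes were taken by name from the 58735 genes of the deposited count table, and this family was selected on the lower MMP1 counts seen in the same comparison of the same libraries. The differences between groups given for the 10 genes are therefore a description and were not used as a test. The EV group held 4 libraries of A549 cells carrying an empty lentiviral vector, and the KRT19 group held 4 libraries of A549 cells carrying a lentivirus that encodes keratin 19 (KRT19), an intermediate filament protein of epithelial cells. Both groups shared the cell line, lentiviral transduction and, per the methods, selection with puromycin as stable lines. The encoded keratin carried a Flag tag. The replicates of a group are not stated to be separate cultures, so that p-values measure the spread between these libraries, which may be technical.

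Matrix metalloproteinases are zinc enzymes that cut collagens, laminins, fibronectin and other proteins around the cell. Most are secreted as inactive proenzymes and are switched on when the propeptide is removed by plasmin, by furin-like enzymes or by another metalloproteinase, whereas membrane-type members stay at the cell surface. TIMPs bind the active site and block it, and TIMP2 also helps MMP14 to activate the MMP2 proenzyme at the cell surface. In lung and other carcinomas these enzymes are known for their part in matrix breakdown and invasion. Transcript counts say nothing of how much enzyme is secreted, activated or inhibited.

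Total counts lay between 14073065 and 17054364 per library. KRT19 itself had 1 to 5 counts in EV libraries and 4353 to 5147 counts in KRT19 libraries (log2 fold change 10.75 ± 0.12, SE), which matched the group labels in all 8 libraries. Of 4 epithelial markers, KRT8 and KRT18 were abundant at 100.0 to 118.6 and 309.3 to 382.5 TPM (transcript level, as counts divided by gene length and scaled to a common sum per library), whereas EPCAM had at most 3 counts and CDH1 at most 1 count in any library. The summed level of 5 fibroblast markers was 0.906 to 1.27 TPM in EV and 0.639 to 1.43 TPM in KRT19 libraries, with LUM at 0 to 2 counts and COL1A1 at 21 to 54 counts. The 4 leukocyte markers summed to 0 to 0.759 TPM in EV and 0.488 to 1.07 TPM in KRT19 libraries, and CD3E was at 0 counts. Because the label text on extraction names retina, retinal markers were also examined, and RCVRN had 0 counts in all 8 libraries, CRX at most 1 count and NRL 9 to 24 counts.

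Upstream sequence is shown for a stromelysin that was transcribed at a low level, for the most counted of the metalloproteinases and for the inhibitor without any count, to set the members side by side. Each run holds 200 bases directly before the gene start given in the count table, 5′ to 3′ on the strand of the gene, read from the RefSeq promoter table (GRCh38.p14). The MMP10 run ends at the RefSeq start, whereas those of MMP14 and TIMP3 end 28 and 4 bases before it. MMP10 is given for chr11:102780629-102780828 (minus strand), MMP14 for chr14:22836357-22836556 (plus strand) and TIMP3 for chr22:32801501-32801700 (plus strand). Capitals mark the letters TGANTCA and TATAAA, the TATA box. TGANTCA, where N is any base, was used as a permissive search pattern for sites of AP-1 (dimers of FOS and JUN proteins).
MMP10: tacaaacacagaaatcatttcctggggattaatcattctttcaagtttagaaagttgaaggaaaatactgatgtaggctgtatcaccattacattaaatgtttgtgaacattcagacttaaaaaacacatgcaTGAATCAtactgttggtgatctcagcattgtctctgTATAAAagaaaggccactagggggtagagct
MMP14: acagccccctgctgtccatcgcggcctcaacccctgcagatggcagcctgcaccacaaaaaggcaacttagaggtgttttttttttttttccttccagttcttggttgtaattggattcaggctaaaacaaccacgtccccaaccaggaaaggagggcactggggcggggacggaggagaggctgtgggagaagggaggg
TIMP3: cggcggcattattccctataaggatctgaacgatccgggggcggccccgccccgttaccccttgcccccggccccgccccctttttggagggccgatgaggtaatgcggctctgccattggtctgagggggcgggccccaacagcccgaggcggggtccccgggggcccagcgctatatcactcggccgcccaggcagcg

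A RefSeq promoter was matched for 5 of the 10 genes, MMP10, MMP14, MMP15, TIMP1 and TIMP3. Both motifs were searched on both strands of the 250 bases before the RefSeq start, and their matches did not overlap. MMP10 held TGAATCA from -67 to -61 and, on the gene's strand, TATAAA from -31 to -26 relative to the start. The other 4 windows held no match to either. On either strand, TGANTCA was found in 6.57% and TATAAA in 10.7% of 35116 promoter windows of the same length. The MMP10 run shown was also poorer in G and C (35.5%) than those of MMP14 (55.0%) and TIMP3 (70.5%). A match is a description of letters and not of binding.

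The inhibitors and the membrane-type enzyme MMP14 were the most abundant members. On the TPM scale, which allows genes of different length to be compared, the mean over 8 libraries was 369.4 for TIMP1 (range 320.1 to 401.7), 124.7 for TIMP2 (116.6 to 135.6) and 91.7 for MMP14 (78.9 to 96.4). MMP1 followed with 22.5 (16.1 to 34.9), then MMP10 with 7.22 (5.93 to 8.75) and MMP15 with 5.57 (4.91 to 6.40). The ranges of neighbours in this order did not overlap from TIMP1 down to MMP10, whereas those of MMP10 and MMP15 did. MMP9, MMP3 and MMP2 lay at 0.293, 0.0392 and 0.0343 TPM, and TIMP3 had no count. The range of MMP9 (0.100 to 0.556 TPM) overlapped those of MMP3 (0 to 0.105) and MMP2 (0 to 0.131), although MMP9 was above both within each of the 8 libraries, on 1 to 5 counts. MMP3 and MMP2, with 3 and 6 counts in all, cannot be ordered.

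**Figure D1:**
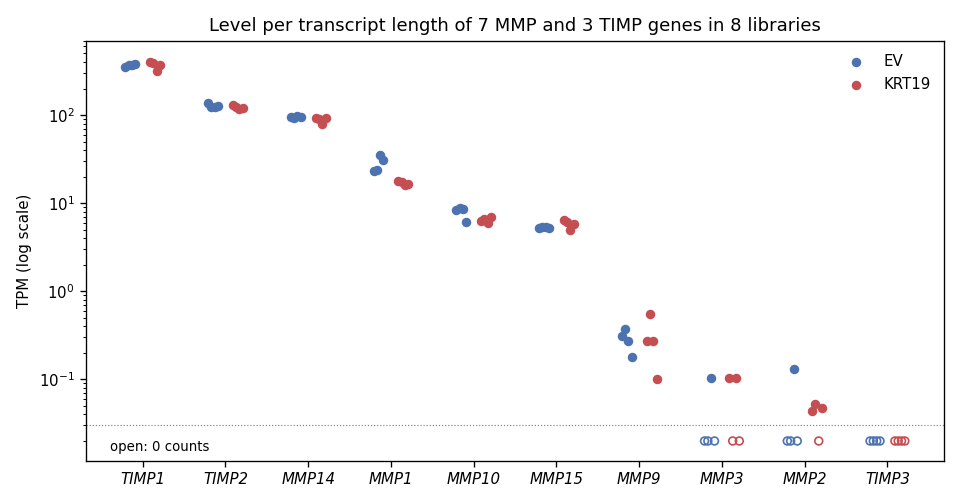
Level of each of the 10 genes in TPM (log axis) in 4 EV and 4 KRT19 libraries, each point being 1 library and open circles libraries with 0 counts. TIMP1, TIMP2 and MMP14 lie at or above 78.9 TPM in every library, whereas MMP9, MMP3, MMP2 and TIMP3 stay at or below 0.556 TPM.

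Genes were kept for comparison by the edgeR expression filter, which 6 of the 10 members passed, each with at least 45 counts in every library. Not passing were MMP2 and MMP9, the gelatinases that degrade denatured collagen and basement membrane, MMP3, a stromelysin of broad specificity, and TIMP3, the inhibitor that is retained in the matrix. MMP2 had 0, 0, 3 and 0 counts in EV libraries and 1, 1, 0 and 1 in KRT19 libraries, 6 in all. MMP3 had 1 count in each of 3 libraries (EV replicate 3 and KRT19 replicates 1 and 3) and 0 in the others. MMP9 had 3, 4, 3 and 2 counts in EV and 3, 5, 3 and 1 in KRT19 libraries, and 18.4% of its exonic bases are overlapped on the opposite strand by SLC12A5-AS1. Whether these genes differed between the groups was not detectable at this depth. The 0 counts of TIMP3 in every library allow up to 3 counts per library, which equals 0.176 to 0.213 CPM (counts scaled to a common library size after TMM adjustment). Intervals of this kind cover counting error only.

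MMP1 (ENSG00000196611) encodes the interstitial collagenase, which cleaves fibrillar collagen, and occupies chr11:102789920-102798160 (GRCh38, minus strand). Its raw counts were 185, 216, 320 and 287 in EV replicates 1 to 4 and 165, 131, 149 and 138 in KRT19 replicates 1 to 4. These equal 12.3, 13.0, 19.5 and 16.9 CPM in EV libraries and 9.96, 9.32, 8.73 and 9.13 CPM in KRT19 libraries. Every KRT19 library lay below every EV library, the nearest pair being KRT19 replicate 1 and EV replicate 1. The EV mean of 15.4 ± 3.37 CPM compared with a KRT19 mean of 9.28 ± 0.515 CPM (SD, n = 4 each), a log2 fold change of -0.73 ± 0.13 (SE) or -39.9%. In such bulk libraries, fewer cells making a transcript and less transcript per cell cannot be told apart. The coefficient of variation was 21.8% among EV libraries, where counting alone gives 6.30%, and 5.54% among KRT19 libraries, where counting alone gives 8.28%. EV replicates 3 and 4 carried the higher values, and without EV replicate 3 the log2 fold change was -0.60. Of all tested genes, 0.540% had a larger absolute log2 fold change. The antisense-oriented pseudogene WTAPP1, with 0 to 6 counts per library, overlaps 7.61% of the exonic bases of MMP1 on the opposite strand. Whether this overlap bears on the MMP1 counts was not tested. How strand was handled in counting was not stated.

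MMP10 encodes a stromelysin that cleaves laminin, fibronectin and proteoglycans, and lies 9.29 kb downstream of MMP1 on the same strand. It was at 4.06, 4.28, 4.26 and 3.001 CPM in EV libraries and at 3.14, 3.20, 2.87 and 3.44 CPM in KRT19 libraries. EV replicates 1 to 3 were above all KRT19 libraries, but EV replicate 4 lay below 3 of them, so the groups overlapped. The log2 fold change was -0.30 ± 0.16 (SE) on 45 to 71 counts per library. At these counts, counting alone gives a coefficient of variation of 12.6% in EV and 14.2% in KRT19 libraries, close to or above the measured 15.6% and 7.42%. The ratio of MMP1 to MMP10 on the TPM scale averaged 3.63 ± 1.13 over EV and 2.63 ± 0.198 over KRT19 libraries (SD, n = 4 per group), and its ranges of 2.71 to 5.02 and 2.37 to 2.83 overlapped.

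Neither of the membrane-type enzymes MMP14 and MMP15 separated the groups by its own level. MMP14, which cleaves collagen at the cell surface and activates the MMP2 proenzyme, was at 115.9, 115.1, 121.7 and 118.8 CPM in EV libraries and at 116.9, 110.8, 96.9 and 115.7 CPM in KRT19 libraries. Its log2 fold change was -0.099 ± 0.060 (SE), and KRT19 replicate 3 stood below the other 7 libraries. MMP15, a related membrane-type enzyme, was at 6.26, 6.63, 6.69 and 6.53 CPM in EV libraries and at 7.97, 7.47, 5.97 and 7.28 CPM in KRT19 libraries. KRT19 replicates 1, 2 and 4 exceeded all EV libraries, while KRT19 replicate 3 fell below them, and the log2 fold change was 0.13 ± 0.12 (SE). The ratio of MMP14 to MMP15 on the TPM scale was 17.19 to 18.35 in EV and 14.53 to 16.06 in KRT19 libraries. These ranges did not overlap, and the ratio was described and not tested.

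TIMP1, a secreted inhibitor of most metalloproteinases, was at 147.4, 160.2, 163.4 and 164.3 CPM in EV libraries and at 174.5, 163.1, 135.7 and 159.5 CPM in KRT19 libraries. The KRT19 group thus held both the highest and the lowest value, with a log2 fold change of -0.0061 ± 0.067 (SE), whose sign changed when KRT19 replicate 3 was left out (0.062). TIMP2 was at 208.3, 194.0, 197.6 and 198.4 CPM in EV libraries and at 204.3, 190.0, 180.7 and 190.7 CPM in KRT19 libraries, with a log2 fold change of -0.060 ± 0.050 (SE). Both groups overlapped for either inhibitor. Exons of other genes cover 10.0% of the exonic bases of TIMP2 and none of those of TIMP1.

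**Figure D2:**
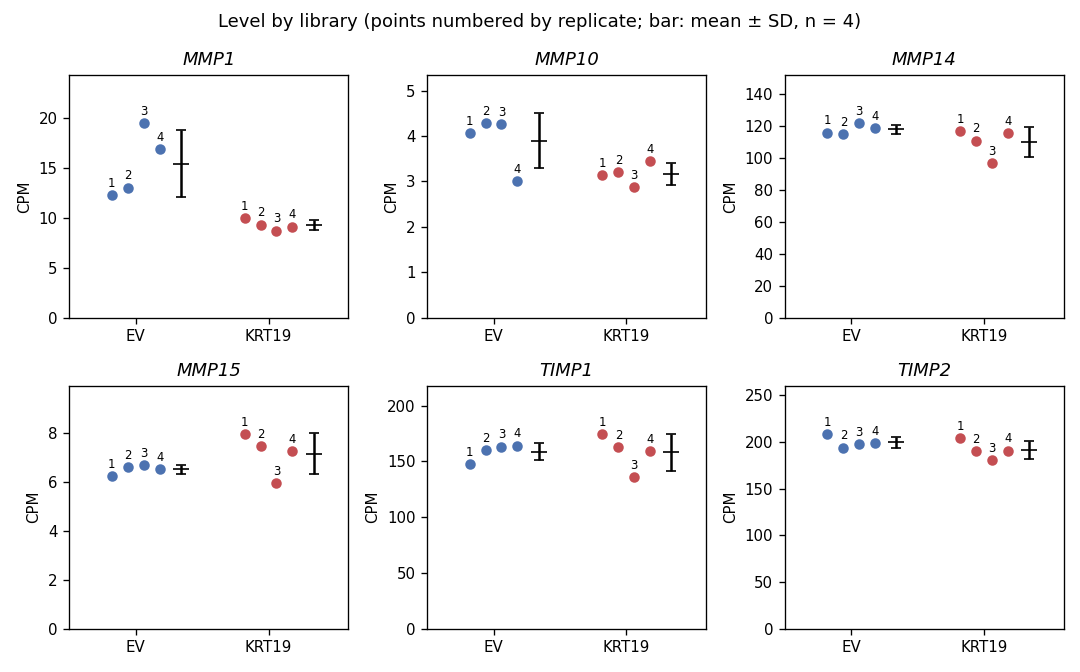
Level in CPM of the 6 tested members in each library, numbered by replicate, with mean ± SD (n = 4) beside the EV and KRT19 groups and axes starting at 0. The MMP1 points of the groups do not overlap, and KRT19 replicate 3 is the lowest point of every panel.

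KRT19 replicate 3 had the lowest CPM of all 8 libraries for each of the 6 tested members. Over all tested genes it was the lowest library for 21.6% and the highest for 23.2%, the largest shares of any library for both. The other 7 libraries were lowest for 8.96% to 17.1% of genes. The root mean square deviation of log2 CPM from the group mean was also largest in this library (0.214, against 0.175 to 0.199 in the others). Without it the log2 fold changes were -0.70 for MMP1, -0.26 for MMP10, -0.042 for MMP14, 0.21 for MMP15, 0.062 for TIMP1 and -0.032 for TIMP2. MMP1 and MMP10 were therefore little altered, the estimate of MMP14 shrank and that of MMP15 grew. Deviations from the group means were alike in MMP15 and TIMP1 (Pearson's r = 0.97 over 8 libraries), MMP14 and MMP15 (0.92) and MMP14 and TIMP1 (0.89). For MMP1 and MMP10 the same correlation was -0.20, although KRT19 replicate 3 was their lowest library too.

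**Figure D3:**
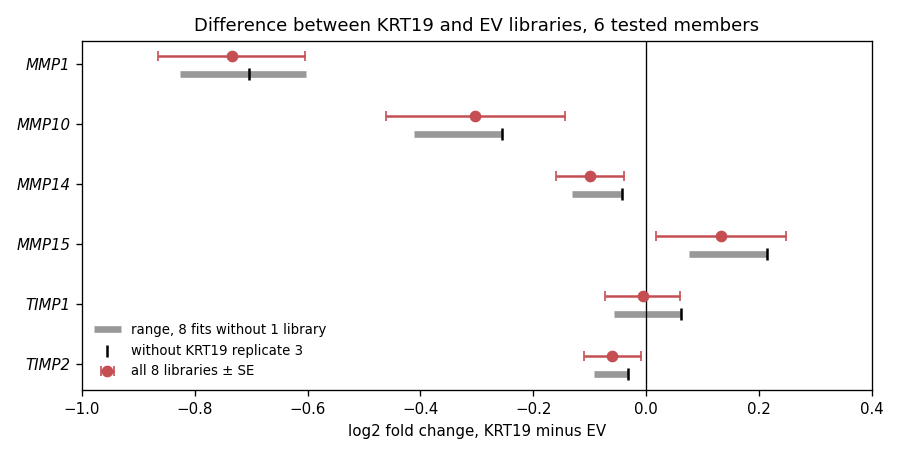
Log2 fold change of KRT19 minus EV for the 6 tested members, with points and SE bars for all 8 libraries, grey bars for the range over 8 fits that each left out 1 library, and a black tick for the fit without KRT19 replicate 3. MMP1 stays between -0.83 and -0.60, whereas the grey bar of TIMP1 spans 0.

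Counted over the family, 5 of the 6 tested members had an estimate below 0 and 1 (MMP15) above 0, where all 14621 tested genes had 6984 below and 7637 above 0, and the median log2 fold change was -0.080 against 0.0051 over the same genes. No member had an adjusted p under 0.05 in edgeR's quasi-likelihood test, where 0.00684% of all tested genes did and that of MMP1 was 0.141. At an unadjusted p under 0.05, 1 member (MMP1) was called, against 5.41% of all genes in either direction and 2.56% in the lower direction. DESeq2 and limma-voom, which called 0.0342% and 0.0547% of the tested genes after adjustment, each called MMP1 and no other member, and edgeR called it too without EV replicate 1 (log2 fold change -0.83, adjusted p = 0.0353), where 0.0203% of genes were called, and under a looser filter, where 0.235% were called. In the other 11 of 15 alternatives MMP1 was not called, with adjusted p-values up to 0.736 in edgeR (without EV replicate 4). MMP1 was the 1 member with all KRT19 libraries below all EV libraries, a pattern of 1.81% of tested genes, and no member had the opposite pattern, found in 1.63%. Since MMP1 led to the choice of the family, these counts are given as a description.

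The balance of inhibitor to enzyme transcripts was described from summed TPM. The 7 MMP members summed to 136.6 ± 6.73 over EV and 118.1 ± 8.003 over KRT19 libraries (SD, n = 4 per group), with ranges of 131.0 to 145.8 and 106.3 to 124.0. MMP14 made up 69.6% ± 2.56 of the EV sum and 74.9% ± 0.632 of the KRT19 sum, and MMP1 made up 20.4% ± 3.20 and 14.4% ± 0.656. Both the MMP sums and these shares hold the MMP1 values on which the family was selected. MMP14 itself averaged 94.9 TPM over EV and 88.5 TPM over KRT19 libraries. The 3 TIMPs summed to 497.4 ± 8.501 and 490.7 ± 40.3. The ratio of TIMP to MMP sums was 3.42 to 3.799 in EV and 4.02 to 4.28 in KRT19 libraries, a separation that holds the MMP1 values on which the family was selected. With MMP1 left out of the sum the ranges overlapped, at 4.45 to 4.75 in EV and 4.65 to 5.00 in KRT19 libraries. The ratio of TIMP2 to MMP14, the pair that acts together on the MMP2 proenzyme, averaged 1.34 ± 0.0579 over EV and 1.38 ± 0.0716 over KRT19 libraries, with overlapping ranges.

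The other 16 MMP genes and TIMP4 showed how far these cells transcribe the rest of the family. Of these 17 genes, 12 were not tested, with at most 6 counts in any library, and MMP7, MMP21, MMP26, MMP27 and TIMP4 had 0 counts in all 8 libraries. The 5 tested genes were MMP17, MMP16, MMP11, MMP24 and MMP13. None passed the adjusted threshold (lowest adjusted p = 0.906, edgeR), and 2 estimates were below and 3 above 0. MMP17, which is anchored to the membrane by a lipid, had a mean of 24.6 TPM, within the range of MMP1, and a log2 fold change of -0.050 ± 0.064 (SE). MMP16, another membrane-type enzyme, averaged 12.9 ± 0.912 CPM over EV and 13.6 ± 1.34 CPM over KRT19 libraries (SD, n = 4 per group). MMP24, also membrane-type, was at 2.17 ± 0.478 and 2.54 ± 0.652 CPM. MMP11, a stromelysin-type enzyme that furin activates inside the cell, was at 3.76 ± 0.414 and 3.05 ± 0.149 CPM and was the 1 gene of these 5 whose groups did not overlap (log2 fold change -0.30 ± 0.15, SE), the lower pattern shown by 1.81% of all tested genes.

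MMP1, MMP3 and MMP10 belong to a cluster of 9 MMP genes on chromosome 11 that spans 435.2 kb. Only MMP1, MMP10 and MMP13 of this cluster were tested, and the other 6 had at most 3 counts in any library. MMP3, the next MMP gene on the other side of MMP1 at a distance of 37.6 kb, had 3 counts in all. MMP13, a further collagenase, had 9 to 32 counts per library, averaging 1.17 ± 0.160 CPM (EV) and 1.15 ± 0.544 CPM (KRT19), and a log2 fold change of 0.0032 ± 0.30 (SE). Within 1 Mb on either side of MMP1 the table held 49 genes, of which 12 were tested. MMP1 was the 1 gene of these 12 whose groups did not overlap, against 1.81% (lower) and 1.63% (higher) of all tested genes. Because the window was centred on MMP1, which led to the choice of the family, that count was fixed in advance to hold MMP1. Of the non-MMP neighbours, YAP1, a coactivator of the Hippo pathway, had a log2 fold change of -0.0065 ± 0.059 (SE). BIRC3 and BIRC2, inhibitors of apoptosis, had 0.14 ± 0.11 and -0.0062 ± 0.082, and TMEM123 had 0.031 ± 0.074. CEP126, CFAP300, AP001527.2, DCUN1D5 and DYNC2H1 lay between -0.25 and 0.14.

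**Figure D4:**
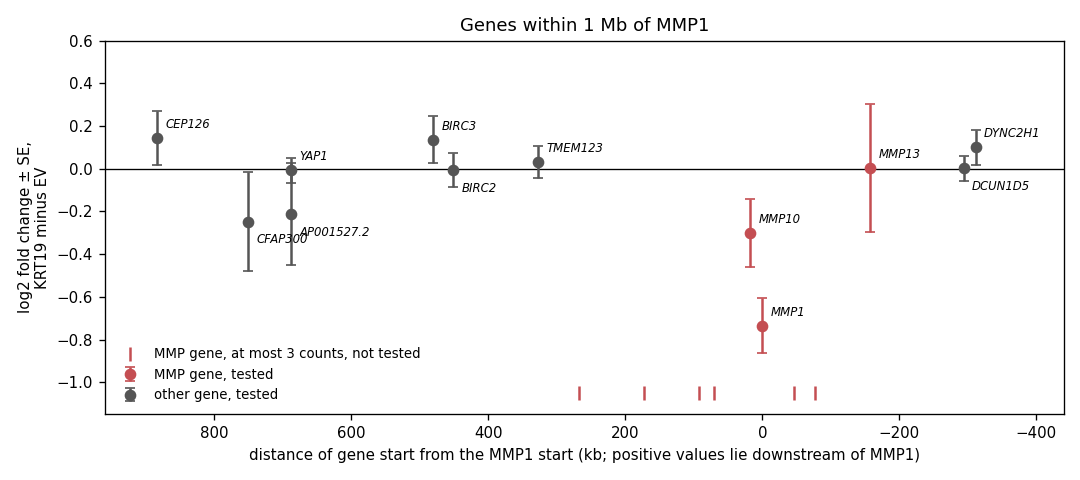
Log2 fold change ± SE of the 12 tested genes within 1 Mb of MMP1, plotted by the distance of the gene start from the MMP1 start in kb, with ticks at the bottom for 6 MMP genes that were not tested. MMP1 stands at -0.73 and MMP10 at -0.30, while the others lie between -0.25 and 0.14.

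Genes around the metalloproteinases were examined in 5 lists holding 96 genes, of which 67 were tested, including the 5 further MMP genes above. No listed gene passed the adjusted threshold (adjusted p of at least 0.906 in each list, edgeR), and 5 (7.46% of 67) had an unadjusted p under 0.05, against 5.41% of all tested genes. In 6 (8.96%) all KRT19 libraries lay below all EV libraries (MMP11, CD44, ADAMTS15, LAMB1, SPARC and JUNB), against 1.81% of all tested genes, and in 1 (1.49%) they lay above (FOSL1), against 1.63%. These lists were drawn up with results of these libraries known, and the genes singled out by their p or by their non-overlap were chosen after their values were seen.

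Activators and controllers of MMPs comprised 20 genes, 16 of them tested, with 12 estimates below and 4 above 0 and a median log2 fold change of -0.062. BSG, a cell surface glycoprotein that induces MMPs in neighbouring cells, averaged 975.2 ± 28.6 CPM over EV and 929.0 ± 56.2 CPM over KRT19 libraries (SD, n = 4 per group). CD44, the hyaluronan receptor that docks MMPs at the cell surface, was at 570.1 ± 9.96 and 536.7 ± 20.1 CPM, with a log2 fold change of -0.087 ± 0.044 (SE). PLAU, the urokinase that generates plasmin, had a log2 fold change of -0.034 ± 0.050 (SE). RECK, a membrane-anchored MMP inhibitor chosen after its values were seen, was at 12.7 ± 1.30 and 12.2 ± 0.630 CPM. Plasminogen itself (PLG) had 0 counts in every library.

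The ADAM and ADAMTS list, sheddases and proteoglycan-cleaving relatives of the MMPs, had 13 of 21 genes tested, 9 estimates below and 4 above 0. The sheddases ADAM9, ADAM10, ADAM15 and ADAM17 were the most counted and had log2 fold changes between -0.048 and 0.041. ADAMTS15, a proteoglycan-cleaving enzyme, averaged 1.32 ± 0.111 CPM (EV) and 0.873 ± 0.0637 CPM (KRT19) on 11 to 24 counts, a log2 fold change of -0.59 ± 0.24 (SE, unadjusted p = 0.0235, adjusted p of at least 0.906, edgeR).

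Among the matrix substrates, 15 of 20 genes were tested, with 12 estimates below and 3 above 0 and a median of -0.080. The fibrillar and basement membrane collagen genes COL1A2, COL3A1, COL4A1, COL4A2 and COL5A1 had at most 4 counts in any library, and COL1A1 had 21 to 54 counts. Laminin subunits were the most counted substrates. LAMC1 had a log2 fold change of -0.036 ± 0.052 (SE), LAMB3 of 0.059 ± 0.054, LAMA5 of -0.16 ± 0.063 and LAMB1 of -0.083 ± 0.050. LAMA5 (unadjusted p = 0.0183) and SPARC, a collagen-binding matrix protein (-0.45 ± 0.20, unadjusted p = 0.0404), were the substrates with an unadjusted p under 0.05 in edgeR.

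All 18 genes of the last list, AP-1, ETS and other transcription factors known to act on MMP promoters, were tested, with 7 estimates above and 11 below 0. FOSL1, an AP-1 subunit, averaged 378.6 ± 6.32 CPM over EV and 408.1 ± 12.9 CPM over KRT19 libraries (SD, n = 4 per group), a log2 fold change of 0.11 ± 0.044 (SE, unadjusted p = 0.0241, edgeR). JUNB, another AP-1 subunit, was at 58.4 ± 2.32 and 52.3 ± 2.25 CPM, a log2 fold change of -0.16 ± 0.057 (SE, unadjusted p = 0.0127, edgeR). Of the other AP-1 subunits, FOS (-0.11), FOSL2 (-0.053), JUN (-0.11) and JUND (-0.025) had estimates below 0 and FOSB (0.10) above 0, none with an unadjusted p under 0.05. SP1, ETS1 and ETV5 lay between -0.017 and 0.028, each within its SE of 0.

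**Figure D5:**
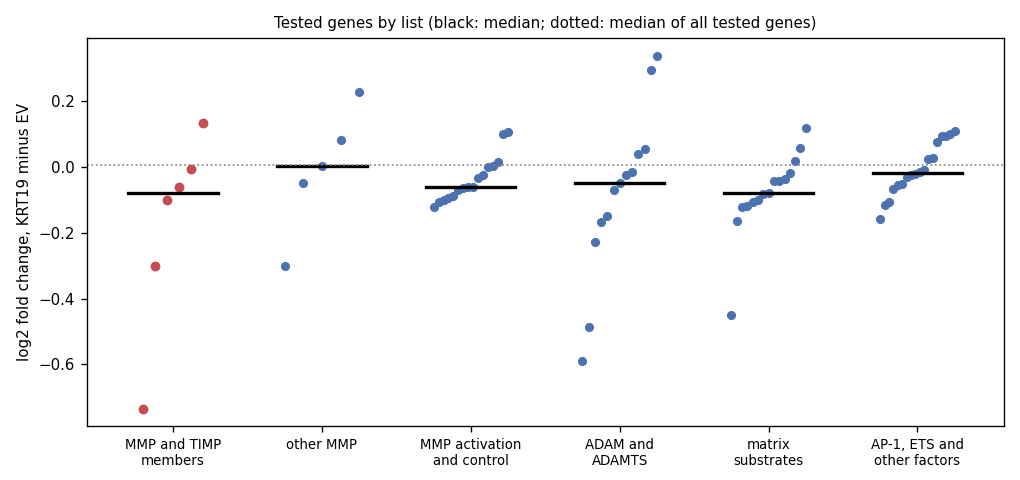
Log2 fold change of KRT19 minus EV for each tested gene of the MMP and TIMP family and of 5 related lists, each point being 1 gene, with black lines at the list medians and a dotted line at the median of all tested genes (0.0051). List medians lie between -0.080 and 0.0032, and MMP1 is the lowest point drawn.

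The genes whose log2 CPM followed that of MMP1 most closely over the 8 libraries, of 13581 genes compared, were PHYKPL (Pearson's r = 0.96), an enzyme that breaks down phosphorylated hydroxylysine, KDELR3 (0.94), a receptor that returns proteins to the endoplasmic reticulum, and ADAMTS15 (0.94). All 3 were lower in every KRT19 library than in every EV library, which 1.81% of all tested genes were and which a choice by likeness to MMP1 favours, at 16.1 ± 0.900 against 19.1 ± 1.78 CPM for PHYKPL and 34.1 ± 0.841 against 36.6 ± 1.04 CPM for KDELR3 (SD, n = 4 each). Within the groups, the correlation of deviations from the group means was 0.90 for PHYKPL, 0.76 for KDELR3 and 0.70 for ADAMTS15. These values describe likeness over libraries that share the groups and were picked as the highest of many.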

How the data were processed

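Counts of 8 A549 libraries (4 EV, 4 KRT19) were used, grouped by sample title. The authors deposited raw read counts per gene without normalization, with gene lengths and GRCh38 coordinates. The submitters' processing notes name Bowtie 0.12.2, featureCounts 1.5.0-p3, DESeq2 and hg38 without roles, and strand handling is not given in the sources used here. The members and gene lists were chosen with earlier results of these data known.

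Genes were kept by filterByExpr (14621 of 58735, at least 99.8% of counts), scaled by TMM and compared in 1 group model (R 4.3.3, edgeR 4.0.16, glmQLFit and glmQLFTest, two-sided, Benjamini-Hochberg threshold 0.05). The SE was taken as the size of the log2 fold change over the root of its F statistic. CPM used TMM-scaled sizes, log2 CPM a prior count of 2, and TPM the table's gene lengths. The floor was 3 counts per library. Named genes were the members, KRT19, listed genes past the adjusted threshold or otherwise the 4 with the highest mean CPM per list, the 3 most like MMP1 (mean CPM of at least 1) and tested genes within 1 Mb of MMP1. Of the genes this rule and the marker lists name, 2 are not reported here. The procedure was tested on simulated data. Alternatives used DESeq2 1.42.0, limma 3.58.1, other scalings and filters, a replicate block and leaving out 1 library.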

Additional observations from a re-analysis of the deposited data

Results flagged for a closer look

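MMP10 in EV replicate 4 stood apart from the other EV libraries. Its log2 CPM was 1.64 against 2.07 to 2.14 in EV replicates 1 to 3, and its gap to the nearest of them was 0.852 of the group's range, above the critical value of Dixon's test for 4 samples. Of 12 groups of 4 libraries examined, 6 members in EV and in KRT19, chance would give 0.6 such gaps. Without EV replicate 4 the log2 fold change of MMP10 was -0.41.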

How the results depend on the processing

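The members past the adjusted threshold numbered 0 to 1 over 15 alternatives. MMP1 was the 1 member called (count 1) with the DESeq2 Wald test (log2 fold change -0.73, adjusted p = 0.000851), limma-voom with quality weights (-0.72, adjusted p = 0.0201), the looser filter (genes with any count, 1 or more; -0.74, adjusted p = 5.21e-09 in edgeR, with 71 of 30250 genes called) and edgeR without EV replicate 1 (-0.83, adjusted p = 0.0353, with 3 of 14799 genes called). The cause was not tested. Leaving out each library in turn gave 0 to 1 members and -0.83 to -0.60 for MMP1, and over all alternatives its adjusted p ran from 5.21e-09 to 0.736. No related gene was called in any alternative. The estimate of TIMP1 changed sign with limma-voom (0.013) and without EV replicate 3, EV replicate 4 or KRT19 replicate 3 (leave-one-out range -0.057 to 0.062). MMP10 (-0.41 to -0.15), MMP14 (-0.13 to -0.042), MMP15 (0.075 to 0.21) and TIMP2 (-0.093 to -0.032) kept their direction in every alternative that tested them, and MMP10 was not tested under the stricter filter (at least 5 CPM in 4 libraries). Replicate numbers were not shown to pair libraries (correlation of deviations -0.16 to 0.057), and with the replicate block MMP1 was at -0.72, MMP10 at -0.30, MMP14 at -0.10, MMP15 at 0.13, TIMP1 at -0.010 and TIMP2 at -0.061, with 0 members and 0 related genes called. MMP2, MMP3, MMP9 and TIMP3 were limited by depth.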
